A study of Mus musculus with 4 samples.

Results

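The heat shock proteins and J-domain chaperones are the protein-folding genes that the mouse annotation names Hspa, Hspb, Hspd, Hspe, Hsph, Hsp90, Dnaja, Dnajb and Dnajc. They were chosen by symbol and by having a protein-coding transcript, which gave 74 of the 55536 annotated genes, and 14 pseudogene symbols of the same families were left out by that rule. They were read in polyA RNA-seq of bone-marrow-derived macrophages, cells grown in culture from bone marrow, of C57BL/6J mice. There was 1 group, of 4 libraries that the labels number as biological replicates 1 to 4. The descriptions give a first exposure of 12 hours to Lipid A at 100 ng/ml, 12 hours of washout and a second exposure of 60 minutes at the same dose. Lipid A is the lipid anchor of lipopolysaccharide and the ligand of Toll-like receptor 4. Other label fields disagree: source names and treatment fields name lipoprotein A as the agent and mention no washout. All libraries carry both exposures and the same donor identifier, and the sex and age of the mice were not recorded. Untreated and once-treated cells are not analysed here, so no level below is a response to Lipid A. The spread and p-values below measure differences between these 4 libraries, and whether they came from separate mice is not given.

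Chaperones of these families work as a relay. A J-domain protein brings an unfolded client to an Hsp70 and makes that Hsp70 hydrolyse ATP and close on the client, and a nucleotide exchange factor, such as an Hsp110, reopens it. Hsp90 takes over clients that are nearly folded, among them kinases and steroid receptors, the chaperonin Hspd1 with its lid Hspe1 encloses proteins in mitochondria, and small heat shock proteins hold unfolded proteins without ATP. Each compartment has its own set: cytosol, endoplasmic reticulum and mitochondria. In macrophages Hsp90b1, the Hsp90 of the endoplasmic reticulum, folds Toll-like receptors, and heat shock factor 1 (Hsf1) raises the inducible cytosolic genes when proteins unfold.

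The libraries held 26613690, 23167140, 41453162 and 34946569 expected counts on genes in replicates 1 to 4, so a gene without counts could still hold 3, or 0.0724 to 0.1295 CPM (library-scaled counts), for counting error only. All 10 macrophage markers were at 1 TPM (transcript abundance, scaled for length and depth) or more in each library, and their TPM summed to between 17144 and 20134. Of 22 markers of other cell types 1, Pecam1, reached that level in each library, 3 had no TPM in any, and the sum of all 22 was 4.84 to 8.53 TPM. Replicate 1 stood apart in 1 ribosomal RNA gene, CT010467.1, which took 7.14% of its TPM, against 1.29% to 2.73% in the other libraries. Mitochondrial genes took 1.94%, 2.79%, 4.77% and 3.99% of TPM in replicates 1 to 4. In such bulk RNA fewer expressing cells and less RNA per cell cannot be told apart.

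Most of the family was expressed. Of the 74 members 55 (74.3%) were detected, meaning 1 TPM or more in each library, against 9692 of 21901 protein-coding genes (44.3%). The members' median log2(TPM + 0.1) was 3.84 ± 0.13 (SD over 4 libraries), against -1.13 ± 0.12 over all protein-coding genes. Of the members 40 had at least 10 TPM and 9 at least 100 TPM in each library, against 5850 and 1058 of the 21901 protein-coding genes. Together they took 0.512%, 0.631%, 0.576% and 0.555% of TPM in replicates 1 to 4. The 3 most abundant, Hspa8, Hsp90ab1 and Hspa5, held 48.6% to 55.1% of that, and Hspa8 alone 27.2% to 33.3%. In the order of mean TPM 50 of the 54 pairs of neighbouring detected members overlapped over the libraries. The 4 steps that did not were Hspa8 above Hsp90ab1, Hspa5 above Hsp90b1, Dnaja1 above Hspa9 and Hspa2 above Dnajc27.

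**Figure D1:**
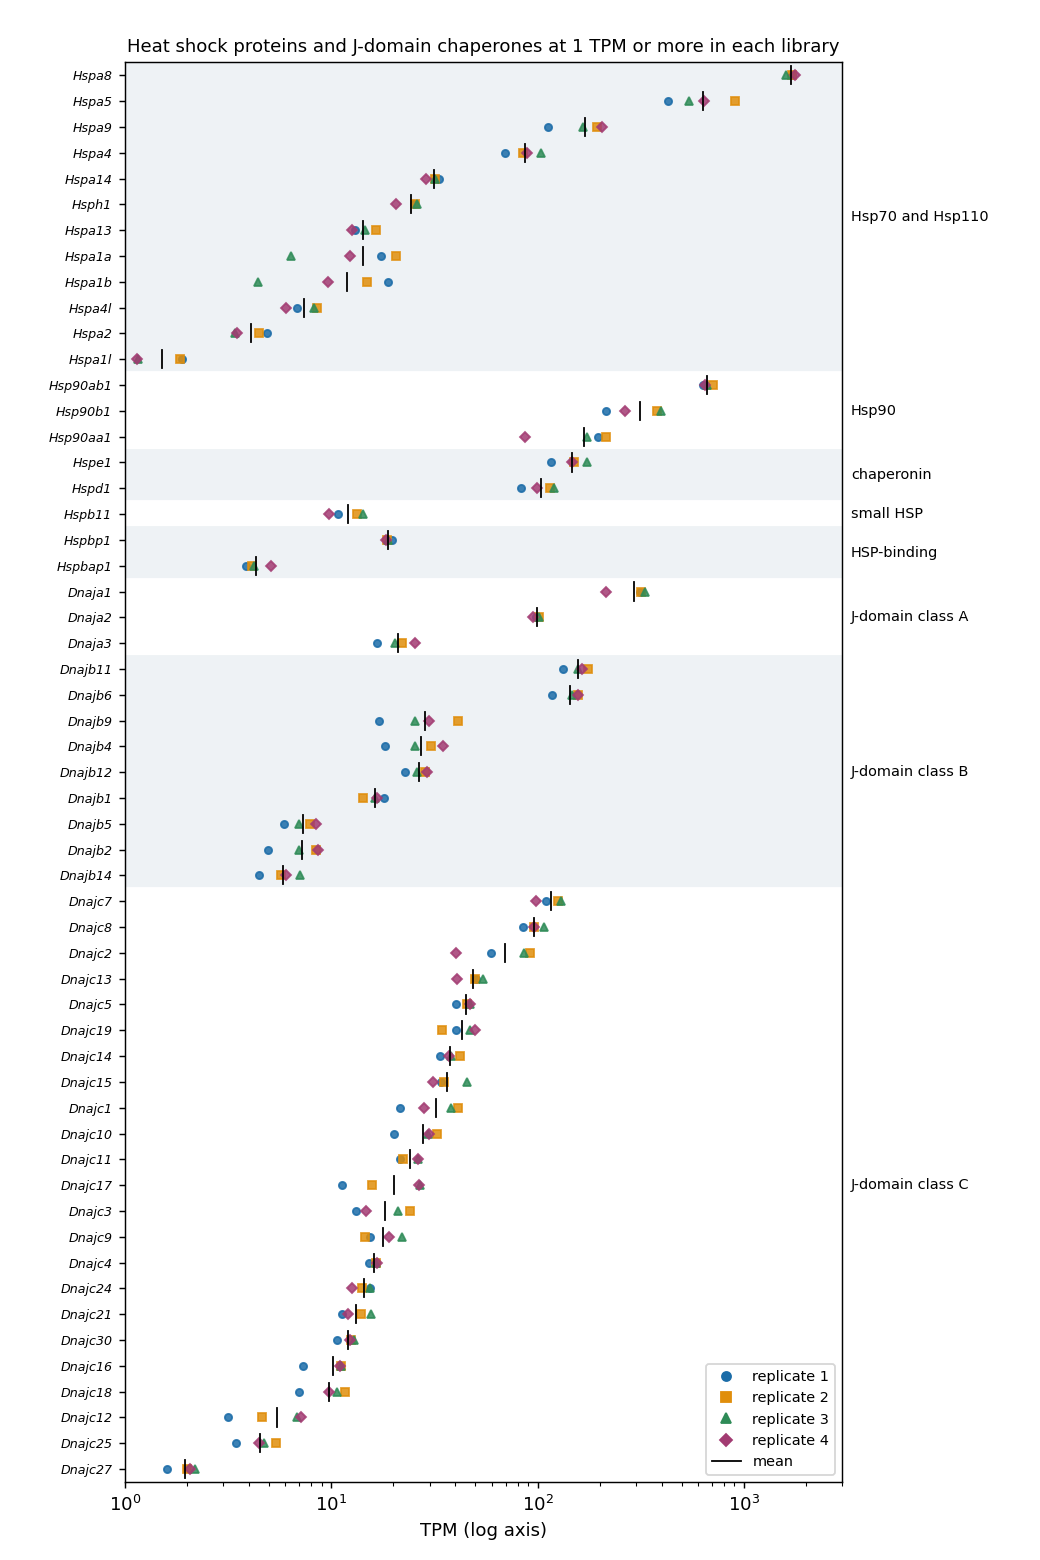
TPM (log axis) of the 55 detected members in each of the 4 libraries, grouped by class, with the mean as a black line. Hspa8 sits alone at 1594 to 1765 TPM, the Hsp90 and chaperonin genes lie above 80 TPM, and the only small heat shock protein detected is Hspb11.

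Of the Hsp70 and Hsp110 genes 12 of 14 were detected, with a summed 2690 ± 273 TPM (SD, n = 4). Hspa8, the constitutive cytosolic Hsp70 that also strips clathrin from vesicles (ENSMUSG00000015656.17, mm10 chromosome 9, 40800984 to 40810087, plus strand), had 1704, 1713, 1594 and 1765 TPM in replicates 1 to 4. Its coefficient of variation (CV, the SD as a share of the mean) of 4.25% was the 4th lowest of the 55 detected members. Of its 50-base stretches of transcript 38.6% also occur in other genes, and 34.6% in Gm15459. Hspa1a and Hspa1b are the classical stress-inducible Hsp70 genes, with no intron, and stand side by side on chromosome 17. Hspa1a (ENSMUSG00000091971.3, 34969190 to 34972156, minus strand) had 17.5, 20.5, 6.37 and 12.4 TPM in replicates 1 to 4. Hspa1b (ENSMUSG00000090877.3, 34956436 to 34959238, minus strand) had 18.8, 15.0, 4.42 and 9.67 TPM. Both were lowest in replicate 3 and next lowest in replicate 4.

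The bases before these genes are shown because they are almost the same and hold a pair of inverted GAA units. Heat shock factor 1 binds elements made of such units. RefSeq's promoter table (GRCm38.p6, the assembly also called mm10) matched 60 of the 74 members, and the last 150 bases before each start follow. Capitals mark the paired unit GAANNTTC, whose first base lies 104 bases before the start in both.
Hspa1a, chr17:34972157-34972306, minus strand: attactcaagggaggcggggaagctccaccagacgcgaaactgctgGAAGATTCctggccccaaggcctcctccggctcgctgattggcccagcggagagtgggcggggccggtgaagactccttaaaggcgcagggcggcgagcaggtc
Hspa1b, chr17:34959239-34959388, minus strand: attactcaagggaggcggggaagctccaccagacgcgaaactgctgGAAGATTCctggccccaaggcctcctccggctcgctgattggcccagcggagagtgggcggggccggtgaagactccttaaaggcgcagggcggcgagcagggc
These 150 bases differ at 1 position, and the 250 upstream bases in the table at 3.

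The longest open reading frames of Hspa1a and Hspa1b, of 1926 and 1929 bases, were 99.4% identical, against 82.9% for Hspa1a and Hspa1l, 78.3% for Hspa1a and Hspa2 and 74.1% for Hspa1a and Hspa8. Of Hspa1a's 50-base stretches 58.8% occur in Hspa1b, and of Hspa1b's 62.3% in Hspa1a, so how reads were divided between them is uncertain and their sum is the safer value. The sum was 36.3, 35.5, 10.8 and 22.1 TPM in replicates 1 to 4, and Hspa8 was 47.0, 48.2, 147.7 and 80.0 times as high. Gm20481 overlaps 19.0% of Hspa1a's exon bases on the other strand, and the sources used here do not say whether counting used strand.

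**Figure D2:**
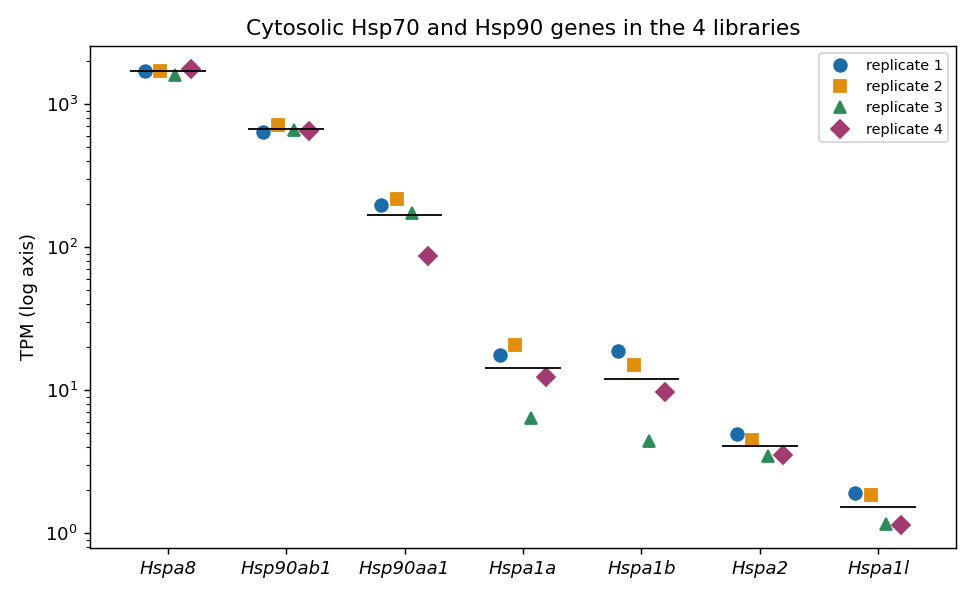
TPM (log axis) of cytosolic Hsp70 and Hsp90 genes, 1 point per library and a black line at the mean. Hspa8 and Hsp90ab1 lie close together over the libraries, while Hspa1a and Hspa1b are lowest in replicate 3 and Hsp90aa1 in replicate 4.

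The Hsp70 of the endoplasmic reticulum, Hspa5 (BiP), had 427.5, 907.3, 542.2 and 642.9 TPM in replicates 1 to 4. The mitochondrial Hsp70, Hspa9 (mortalin), had 112.5, 193.4, 166.4 and 204.8 TPM. Both were lowest in replicate 1. Hsph1, an Hsp110 that reopens Hsp70, had 25.2, 25.4, 26.0 and 20.6 TPM, lowest in replicate 4. Hspa13, an Hsp70 of the endoplasmic reticulum, had 13.0, 16.6, 14.6 and 12.7 TPM, with little spread. Hspa1l, known from testis, had 1.90, 1.85, 1.16 and 1.14 TPM, and 71.9% of its exon bases are overlapped on the other strand by Gm10501.

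All 3 Hsp90 genes were detected, with a summed 1146 ± 147 TPM (SD, n = 4). Hsp90ab1, the constitutive cytosolic form (ENSMUSG00000023944.14, chromosome 17, 45567775 to 45573271, minus strand), had 635.4, 710.4, 663.1 and 649.0 TPM in replicates 1 to 4, with a CV of 4.92%. Hsp90aa1, the inducible cytosolic form, had 195.8, 215.4, 174.3 and 86.5 TPM. Replicate 4 held the lowest value, and the ratio of Hsp90ab1 to Hsp90aa1 was 3.25, 3.30, 3.80 and 7.51 in replicates 1 to 4. Of Hsp90aa1's 50-base stretches 47.5% occur in other genes, and 12.8% ± 9.5 of its TPM (SD, n = 4) lay in transcripts annotated as retaining an intron. Its protein-coding share was 77.67%, 80.78%, 97.25% and 93.19% in replicates 1 to 4, lower in replicates 1 and 2 than in 3 and 4. Hsp90b1 had 213.5, 379.6, 396.0 and 265.2 TPM, lowest in replicate 1.

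The mitochondrial chaperonin pair kept a near-constant ratio. Hspe1, the lid, had 115.9, 149.3, 174.0 and 147.5 TPM in replicates 1 to 4, and Hspd1, the barrel, had 82.8, 115.0, 120.1 and 98.9 TPM. The ratio of Hspe1 to Hspd1 was 1.40, 1.30, 1.45 and 1.49, or 1.41 ± 0.083 (SD, n = 4). Of Hspe1's 50-base stretches 18.4% occur in other genes, and of Hspd1's 39.7%, so the size of this ratio depends on how reads were divided. Both genes were lowest in replicate 1 and highest in replicate 3. They lie head to head on chromosome 1 and share a promoter region, so 1 element is shown in the 30 bases around it. Capitals mark overlapping triple units, the first 89 bases before the start of Hspe1. The annotation used for counting begins Hspd1, on the minus strand, at base 55088243, so the stretch shown lies inside the counted Hspd1 gene. A triple unit is GAANNTTC or TTCNNGAA with a further inverted unit after another NN.
Hspe1, chr1:55088053-55088082, plus strand: ggtccgTTCTAGAACCTTCCGGAAggcccc
The triple unit was searched on either strand in promoter windows (250 bases before the start to 50 after it). It was in 6 of 77 member windows (7.8%), of 4 members, Hspd1, Hspe1, Hsph1 and Dnajb6. Of all 32851 windows 198 (0.6%) held it. The paired unit (GAANNTTC or TTCNNGAA, which the triple unit contains) was in 18 of 77 member windows (23.4%) and in 15.1% of all windows. Those 18 belong to 16 of the 60 members with a window. A match is a description of letters, not of a bound site.

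Small heat shock proteins were mostly not detected: 1 of 8 was detected, and 2 of the other 7 had no count in any library. The one detected, Hspb11, which is also a part of the transport machinery of cilia, had 10.7, 13.4, 14.2 and 9.72 TPM in replicates 1 to 4. Hspb6, known from muscle, had 0.88, 2.42, 2.35 and 3.28 TPM, below the threshold in replicate 1. Of that TPM only 0%, 0%, 19.2% and 39.3% lay in protein-coding transcripts in replicates 1 to 4. Hspb9, known from testis, had 0.24, 0.82, 0.53 and 0.22 TPM. Hspb1 (Hsp25, Hsp27 in human), the main heat-inducible member of this class, had 1.94, 0, 2 and 0 expected counts, or 0.17, 0, 0.11 and 0 TPM. Of its 50-base stretches 48.8% occur in the pseudogene Hsp25-ps1. The members with no count in any library were Hspb2 and Hspb3, known from muscle, Dnajb8 and Dnajc5g, known from testis, and Dnajc22, whose fruit fly counterpart acts in endocytosis. At these depths a level of up to 0.0724 CPM in replicate 3 to 0.1295 CPM in replicate 2 is allowed for each of them. Both genes named for binding heat shock proteins, Hspbp1 and Hspbap1, were detected. Hspbp1, an exchange factor of Hsp70, had 19.7, 18.6, 18.8 and 18.5 TPM with a CV of 3.00%.

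J-domain proteins of class A, built like bacterial DnaJ, were detected for 3 of 4 members, with a summed 415.0 ± 54.1 TPM (SD, n = 4). Dnaja1, a cytosolic partner of Hspa8, had 314.0, 317.2, 333.4 and 214.7 TPM in replicates 1 to 4. Its relative Dnaja2 had 98.2, 101.2, 101.2 and 95.2 TPM, and its CV of 2.89% was the lowest of the detected members. Dnaja3, which works in mitochondria, had 16.7, 22.1, 20.4 and 25.4 TPM. Replicate 4 held the lowest value of Dnaja1 and the highest of Dnaja3.

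Of class B 9 of 13 members were detected, with a summed 421.6 ± 56.9 TPM. Dnajb11 (ERdj3), which delivers clients to Hspa5, had 132.9, 174.7, 157.0 and 163.5 TPM in replicates 1 to 4. Dnajb6, which keeps polyglutamine proteins from aggregating, had 117.1, 156.2, 146.7 and 157.4 TPM. Dnajb9 (ERdj4), induced when proteins unfold in the endoplasmic reticulum, had 17.0, 41.3, 25.6 and 29.8 TPM, with a CV of 35.5%. Dnajb1, the class B partner of the inducible Hsp70s, had 18.1, 14.3, 16.3 and 16.6 TPM. Dnaja1 was 17.4, 22.2, 20.5 and 12.9 times as high as Dnajb1.

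Class C, whose members share only the J domain, had 23 of 28 detected, with a summed 721.0 ± 83.8 TPM. Dnajc7, which links Hsp70 and Hsp90, had 110.2, 125.7, 129.3 and 97.9 TPM in replicates 1 to 4. Dnajc8, found in spliceosomes, had 85.2, 95.8, 107.9 and 96.1 TPM. Dnajc2, which sits on ribosomes with Hspa14, had 59.2, 91.7, 85.5 and 40.5 TPM, highest in replicate 2 and lowest in replicate 4. Dnajc17, an RNA-binding J protein tied to splicing, had 11.3, 15.8, 26.9 and 26.7 TPM, and 24.1% ± 18.0 of it (SD, n = 4) lay in transcripts retaining an intron. Dnajc12, a helper of the aromatic amino acid hydroxylases, had 3.15, 4.63, 6.86 and 7.17 TPM. On normalised CPM Dnajc12 had 4.38, 4.07, 4.83 and 4.603 in replicates 1 to 4, a much narrower range than in TPM. Dnajc17 had 5.31, 7.68, 8.98 and 10.2 CPM, lowest in replicate 1 on both scales. Dnajc4 had 15.2, 16.4, 16.6 and 16.6 TPM, with a CV of 4.14%.

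Not all of a member's TPM lay in transcripts that code for protein. The median protein-coding share was 97.2% over detected members, and 16 of 55 were under 90%. Dnajc15, which restrains the respiratory chain in mitochondria and was chosen for this value, had 9.94% ± 2.15 of its TPM in protein-coding transcripts (SD, n = 4). Of the detected members 9 shared at least 10% of their 50-base stretches with other genes, while 24 shared none.

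The 9 members of the endoplasmic reticulum were all detected, and most were lowest in replicate 1 and highest in replicate 2, on library-normalised CPM (edgeR's TMM). Replicate 1 was the lowest library for 7 of 9 and replicate 2 the highest for 8 of 9. Over all 11679 genes tested, replicate 1 was lowest for 29.2% and replicate 2 highest for 18.9%. Over all 57 members tested, these 9 included, these shares were 43.9% (25 members) and 19.3% (11 members). Of the 11 with replicate 2 highest, 8 were thus of this list. Replicate 1 was lowest for 5 of 10 mitochondrial members and highest for 3, so a low replicate 1 was not limited to this list. The list's median deviation from each gene's mean was -0.30, 0.24, 0.01 and -0.09 on the log2 scale in replicates 1 to 4, against -0.01, 0.00, 0.02 and 0.01 over all genes. None of the 9 passed the test of variation below, against 305 of all 11679 genes (2.61%). An unadjusted p under 0.05 was found for 910 of all genes and for 1 of the 9, Dnajb9 (0.0336, edgeR deviance). Replicate 1 is also the library in which CT010467.1 took 7.14% of TPM, whose part in this was not tested.

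Other members of this list spanned a wide range of levels. Dnajc1 (ERdj1), which sits in the membrane beside ribosomes, had 21.5, 41.3, 38.0 and 28.1 TPM in replicates 1 to 4. Dnajc10 (ERdj5), a reductase of disulfide bonds, had 20.1, 32.5, 29.4 and 29.6 TPM. Dnajc3 (p58IPK), a co-chaperone of Hspa5, had 13.2, 24.1, 21.1 and 14.7 TPM. Dnajc25 had 3.45, 5.42, 4.73 and 4.49 TPM. By TPM these 4 were lowest in replicate 1 and highest in replicate 2. On normalised CPM Dnajc1 was lowest in replicate 4 (39.7 CPM, against 47.8 CPM in replicate 1), and the other 3 kept that order. The promoters of Hspa5, Hsp90b1 and Dnajc3 hold a bipartite element, CCAAT and CCACG with 9 bases between them, which the stress factor Atf6 with NF-Y is known to bind and which was in 3 of 77 member windows (3.9%) and 39 of all 32851 (0.12%), on either strand. A second element searched, TGACGTGG, was in 1 of 77 member windows (1.3%), that of Dnajc25, and in 0.68% of all windows, on either strand. The bipartite one is shown in capitals, read on the gene's strand, and in Hsp90b1 it lies on the opposite strand. It starts 65, 107 and 105 bases before RefSeq's start of Hspa5, Hsp90b1 and Dnajc3 in that order. The annotation used for counting begins Hspa5 at base 34771970, so the Hspa5 stretch shown lies inside the counted gene.
Hspa5, chr2:34772020-34772049, plus strand: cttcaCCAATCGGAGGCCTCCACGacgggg
Hsp90b1, chr10:86705527-86705556, minus strand: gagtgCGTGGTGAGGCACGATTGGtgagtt
Dnajc3, chr14:118937822-118937851, plus strand: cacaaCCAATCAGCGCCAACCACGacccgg

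Of the 10 listed heat shock factor 1 targets 9 were detected, all but Hspb1. On normalised CPM replicate 1 was the highest library for 6 of the 9, against 27.0% of all genes tested. Replicate 3 was the highest for Hspe1 and Hspd1, and replicate 2 for Hspa1a. On the same scale, Hspa1a, Hspa1b and Hspa8 were lowest in replicate 3, and Hsph1, Hsp90aa1 and Dnaja1 in replicate 4. Of the 8 with a promoter window 7 held the paired GAA unit, all but Dnajb1, against 15.1% of all 32851 windows. In the endoplasmic reticulum list 1 of 8 held it, Dnajc10. The first list was made of known targets of this factor, so its count is a description and no test. Hsf1 itself, no member, had 10.3, 13.4, 11.2 and 11.8 TPM in replicates 1 to 4.

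**Figure D3:**
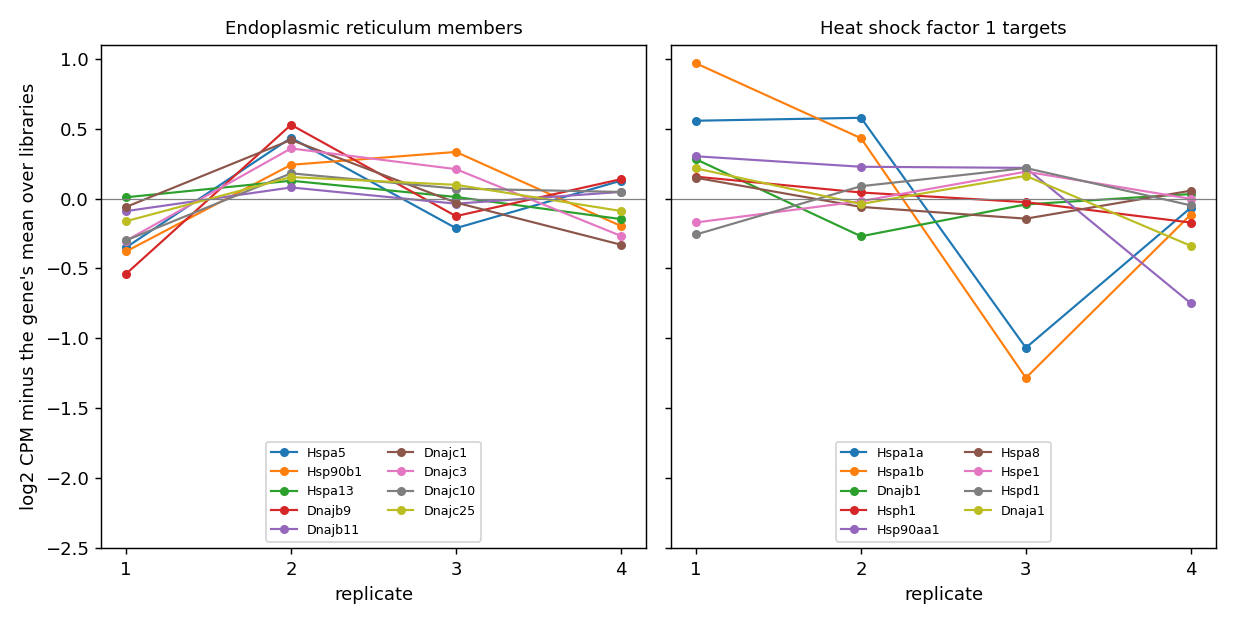
Normalised log2 CPM of each listed member minus its mean over the 4 libraries, for the endoplasmic reticulum list (left) and the heat shock factor 1 targets (right). A line joins 1 gene's values and the replicates have no order. Of the endoplasmic reticulum members 7 of 9 are lowest in replicate 1 and 8 of 9 highest in replicate 2, and on the right Hspa1a and Hspa1b drop in replicate 3 and Hsp90aa1 in replicate 4.

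Among the other compartments, 9 of the 10 measured mitochondrial members, all 6 J proteins of splicing, nucleus and ribosome and 3 of 4 of endocytosis and synapses were detected. By edgeR none of these passed the test of variation, and 1, Dnajc2, had an unadjusted p under 0.05. Over all 11679 genes tested 305 (2.61%) passed, and 910 had an unadjusted p under 0.05 by edgeR. Of 59 further chaperone genes that are no members, among them Hsp90 co-chaperones, the cytosolic chaperonin and protein disulfide isomerases, 54 were detected and 0 of 56 tested varied by edgeR, adjusted or at an unadjusted p under 0.05. A subset of 14 of these that act in or report on the endoplasmic reticulum, drawn after the members' values were seen, was lowest in replicate 1 for 10 and in replicate 3 for 4, against 29.2% and 22.8% of all genes. It was highest in replicate 2 for 6 and in replicates 3 and 4 for 4 each, against 18.9%, 28.2% and 26.0% of all genes. Hyou1, an exchange factor of Hspa5 among them, had 25.7, 52.2, 31.7 and 42.5 TPM in replicates 1 to 4.

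Excess variation between libraries, given a member's abundance, was tested by the edgeR deviance of each gene over the 4 libraries, adjusted by Benjamini-Hochberg over 11679 genes. Of 57 members that passed the filter on low counts 2 were called, Hspa1b and Hspa1a, near the background of 2.61% of all genes. Hspa1b had 35.9, 24.8, 7.48 and 16.9 normalised CPM in replicates 1 to 4, with an adjusted p of 0.000239 by edgeR. Hspa1a had 35.6, 36.1, 11.5 and 23.1 CPM, with an adjusted p of 0.00743 by edgeR. Both calls rest on replicate 3: without it none of the 57 was called, and the adjusted p was 1.0 for Hspa1a and 0.506 for Hspa1b by edgeR. Without replicate 2 Hspa1a had an adjusted p of 0.0683 by edgeR and was not called. The summed pair, an alternative added after the data were seen, had 71.5, 60.9, 19.0 and 40.0 CPM and an adjusted p of 0.000415 by edgeR, and 0.882 without replicate 3. The mitochondrial share of TPM, 1.94%, 2.79%, 4.77% and 3.99% in replicates 1 to 4, had the reverse order of that sum, and its part in these calls was not tested.

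With the 2 called, 5 of 57 members had an unadjusted p under 0.05 in that test, against 910 of all 11679 genes. The other 3 were Dnajc2, Dnajb9 and Hsp90aa1, with edgeR adjusted p of 0.372, 0.4999 and 0.630 (Benjamini-Hochberg). Dnajc17 and Dnajc12, high in CV, were not among them. The members' median deviance was 1.12, against 1.49 over all genes tested. The median CV of TPM was 16.2% over the 55 detected members, against 16.5% over detected protein-coding genes, with 8 members above 30% and 12 below 10%.

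**Figure D4:**
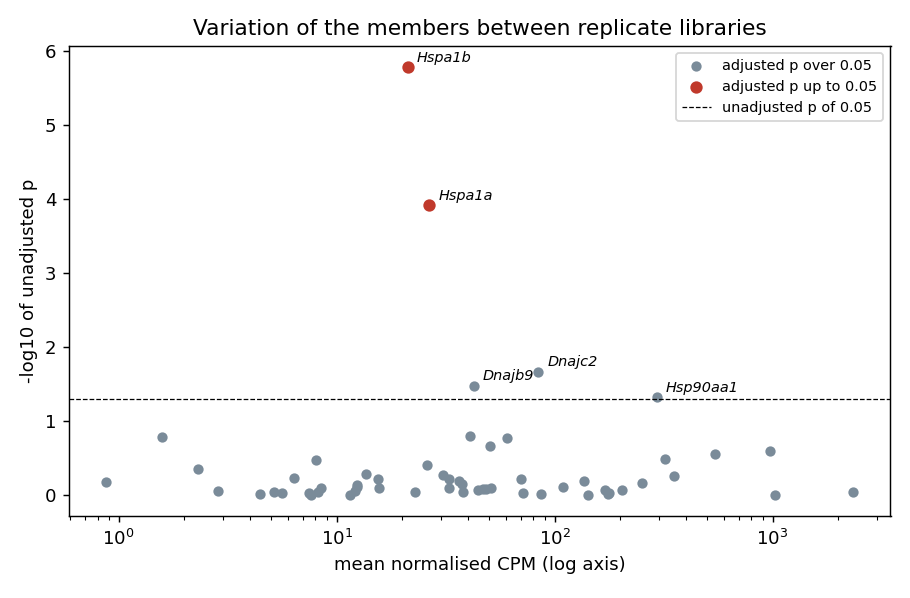
Mean normalised CPM (log axis) of the 57 tested members against -log10 of the unadjusted p of the edgeR deviance test over 4 libraries. Hspa1b and Hspa1a, in red, passed at an adjusted p up to 0.05, and Dnajc2, Dnajb9 and Hsp90aa1 lie above the dashed line without passing.

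Replicates 3 and 4 came from 4 read files each, per the deposited records, against 6 each for replicates 1 and 2, the one technical split recorded. By edgeR's quasi-likelihood test 0 of 57 members differed between these, nor did any of 11679 genes (0%), and 3 members and 838 genes had an unadjusted p under 0.05. DESeq2 called 86 genes, among them 0 members. Hspa1b had 4.42 and 9.67 TPM in the libraries with 4 read files, against 18.8 and 15.0 TPM in those with 6, a log2 difference of -1.32 ± 0.41 (SE) and an adjusted p of 0.644 by edgeR. Hspa1a had 6.37 and 12.4 TPM with 4 read files, against 17.5 and 20.5 TPM with 6, a log2 difference of -1.05 ± 0.33 (SE) and the same adjusted p by edgeR. Hspa1l had 1.16 and 1.14 TPM with 4 read files, against 1.90 and 1.85 TPM with 6. These 3 had the lowest p-values of the members, and in each the values did not overlap between the splits. As the 3 are set apart by p-value, that lack of overlap adds nothing to it. Nor are they fully separate: of Hspa1l's 50-base stretches 9.57% occur in Hspa1a, which shares most of its own with Hspa1b. In TPM 6 of 57 members lay lower and 12 higher with 4 read files without overlap, against 14.3% and 23.5% of all genes tested. In normalised CPM these were 9 and 15 members, against 17.4% and 21.4% of all genes. The variation test was not run within the splits, and the part of read-file number in the calls for Hspa1a and Hspa1b was not tested.

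Each library was also quantified a second time, directly from its reads. By limma 0 of 57 members differed by at least 1 log2 unit at an adjusted p up to 0.05, against 7.68% of 12299 genes higher and 3.22% lower in the second quantification. At any size 20 members and 4864 genes passed by limma, and 32 members and 6887 genes had an unadjusted p under 0.05. The median log2 difference, second minus first, was -0.32 over members and -0.29 over all genes, so values are best read against that shift. Relative to it the 55 detected members lay between -0.18, for Dnajc7, and 0.32, for Hspbap1, and 54 of them within 0.3. The shift differed by library, with medians over members of -0.42, -0.62, -0.05 and -0.16 in replicates 1 to 4 and over all genes of -0.41, -0.59, -0.04 and -0.13.

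**Figure D5:**
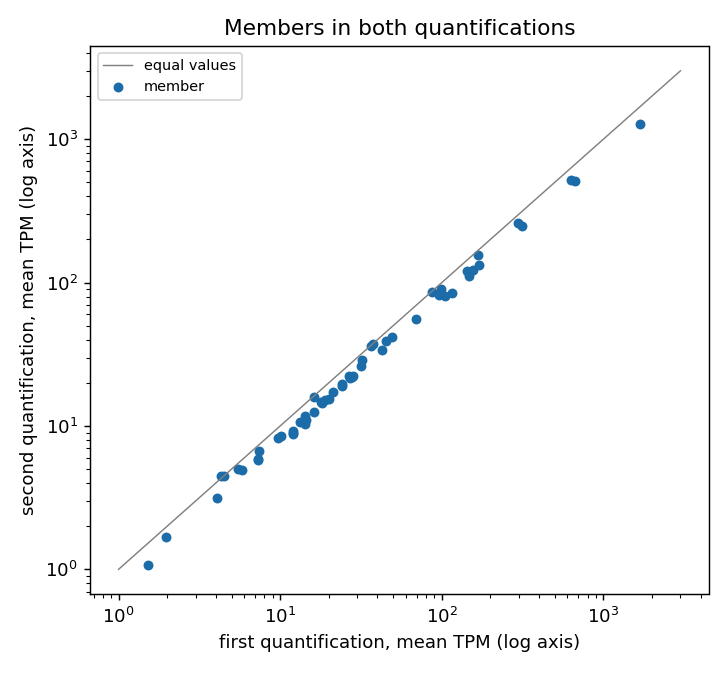
Mean TPM over 4 libraries of the 55 detected members in the second quantification (vertical) and the first (horizontal), both on log axes, with a grey line at equal values. Most points lie a little below the line, by a median of -0.32 on the log2 scale over members, and none lies far from it.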

How the data were processed

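PolyA RNA-seq of 4 libraries of 1 group was analysed. Per the file headers, the authors deposited an expected count and a TPM per gene (first quantification), and estimated counts and TPM per transcript for a second. The deposited records name mm10 and GENCODE M21, with transcriptome alignments as the input of the first and raw reads as that of the second; the programs are not given in the sources used here, but the columns are those that RSEM and kallisto write. TPM was scaled by the authors to one sum per library. Entries that are no gene held 0.079% to 0.293% of counts and were left out. The 141767 transcripts in both quantifications were summed per gene for their comparison.

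Expected counts were rounded. The deviance test used edgeR 4.0.16 in R 4.3.3 (filterByExpr, TMM, dispersion trend with an intercept, chi-square with 3 degrees of freedom; common biological CV 22.4%), the read-file split edgeR's quasi-likelihood test, with DESeq2 1.42.0 as an alternative, and the quantifications limma 3.58.1 on log2(TPM + 0.1), for genes with a mean of at least 1 TPM in either. All were adjusted by Benjamini-Hochberg over all genes at 0.05. They were also run on simulated data, with every gene on the dispersion trend and no shift by library between the quantifications. That simulation cannot show how the tests do where genes scatter around the trend or the shift differs by library. Sequence searches and plots used Python 3.11.15. Alternatives were another scaling, filter, dispersion trend, pseudocount and threshold, the second quantification and leaving out each replicate. Ddit3 has more than 1 identifier, and the one with the higher TPM was used. The members and the lists were chosen with earlier results of these data known. Genes were named by a rule: Hspa1a and Hspa1b, the 3 most abundant of each class, members called, the lists for heat shock factor 1 and the endoplasmic reticulum, the 5 highest and 5 lowest CVs among detected members, and members without counts. A few others are named as exceptions, chosen after their values were seen: Dnajc15, Dnajc16, Dnajc27, Hspa1l, Hspa2, Hspa12b, Hspa14 and Hspbap1.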

Additional observations from a re-analysis of the deposited data

Results flagged for a closer look

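In 4 of the 55 detected members 1 library stood far from the other 3, by the gap to its nearest neighbour over the whole range. Chance gives about 1 in 20, or 2.75, for normally distributed values that are independent between genes. The rule was run on the members only, so whether 4 of 55 differs from the share over all genes was not tested. Dnaja1 had 214.7 TPM in replicate 4, against 314.0 to 333.4 TPM in the other libraries. Hsph1, an Hsp110, had 20.6 TPM in replicate 4, against 25.2 to 26.0 TPM. Dnajc4 had 15.2 TPM in replicate 1, against 16.4 to 16.6 TPM, a small step in a narrow range. Dnajc16, a J protein with a membrane segment, had 7.30 TPM in replicate 1, against 11.1 to 11.2 TPM. These gaps are in TPM. On normalised CPM, a check added after the data were seen, none of the 4 stood as far apart. Dnajc4 then turned, with 7.88 CPM in replicate 1 as its highest value, against 7.47 to 7.80 CPM in the others. Dnaja1 and Hsph1 were still lowest in replicate 4, at 275.3 and 42.9 CPM, and Dnajc16 in replicate 1, at 31.4 CPM. None of the 4 was called variable by the edgeR deviance test over all genes.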

How the results depend on the processing

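The count of 2 variable members stayed at 2 with DESeq2 size factors, a looser filter, DESeq2's dispersion trend and the second quantification, and ranged from 0 to 2 over the fits without 1 replicate. It was 0 without replicate 3 and 1 without replicate 2. No member differed by read-file number under any alternative. Between the quantifications 1 member, Hspa12b, was called with no filter on low values (0 with it), at 0.04 to 0.14 TPM in the first. The members' median log2(TPM + 0.1) of 3.84 was 3.51 in the second quantification and 4.58 over members with a mean of at least 1 TPM, which leaves out the low ones, and 3.80 to 3.90 without 1 replicate. Detected members numbered 46 to 56 over the alternatives. Over all genes the read-file count was 0 by edgeR, against 86 by DESeq2, 35 with the looser filter and 12 without replicate 2, and variable genes numbered 135 without replicate 1, against 305; the cause was not tested. No paired analysis was possible because there is 1 group. A member without counts may hold up to 0.0724 to 0.1295 CPM at these depths.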
